A study of Mus musculus with 4 samples.

Results

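The genes described here are 10 of the 24532 in the expression table: Vegfa, Kdr, Flt1, Pecam1, Cdh5, Plvap, Emcn, Tek, Angpt1 and Angpt2. They were taken by symbol as genes that mark the endothelium or regulate the growth of blood vessels, and each was listed once. RNA sequencing was performed on articular cartilage from male wild type C57BL/6 mice, from sham-operated and from injured joints, each at a young and an adult age. Young means an age of 3 weeks. Adult means 10 weeks in the study's methods, 12 weeks in the sample titles and 14 weeks in another field of the labels. In the methods the injury was a full-thickness cartilage injury (FTCI), a needle wound to the patellar groove of the femur, and cartilage was taken 3 days later, whereas the titles name DMM, the surgical destabilization of the medial meniscus. For the adult sham group the labels give a span of 3 to 14 days instead. RNA of 5 uninjured or 10 injured mice was pooled for each group, so that every value below comes from 1 library per group and no difference has a replicate check, a standard deviation or a p-value. Values are FPKM, the number of sequenced fragments of a gene scaled by transcript length and by the total of mapped fragments.

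The labels name chondrocytes as the cell type. The chondrocyte gene Col2a1, the major collagen of cartilage, was at 9349 and 7903 FPKM in sham and injured cartilage of young mice and 3173 and 3750 FPKM in that of adult mice. The 7 genes of the 10 that mark endothelial cells (Kdr, Flt1, Pecam1, Cdh5, Plvap, Emcn and Tek) summed to 15.3, 75.8, 16.97 and 62.4 FPKM in the same order. All 10 genes were above 0 in all 4 libraries. The libraries therefore held transcripts of endothelial genes beside those of chondrocytes, and in pooled tissue a change in the number of endothelial cells and a change in RNA per cell cannot be told apart.

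Healthy articular cartilage has no blood vessels, whereas the subchondral bone below it and the synovium around it are vascular. Vessels grow when the ligand VEGF-A, the product of Vegfa, binds the receptors encoded by Kdr (VEGFR2, which carries most of the growth signal) and Flt1 (VEGFR1, which also traps the ligand). The angiopoietins act through the receptor Tek (Tie2): Angpt1 is its activating ligand and stabilizes vessels, and Angpt2, released by endothelial cells, loosens them during remodelling.

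Of the 10 genes, 5 had a promoter in the RefSeq table of GRCm38.p6, the assembly behind mm10. Shown here are the 4 of them that mark endothelial cells, because these genes were higher after injury at both ages (values below). Each sequence covers 250 bases before to 50 bases after a transcription start, 5′ to 3′ on the strand of the gene. Capitals mark GGAA or its complement TTCC, the core letters bound by ETS factors, a family that includes regulators of endothelial genes. The windows are chr5:75978406-75978705 (minus strand) for Kdr, chr5:147725962-147726261 (minus strand) for Flt1, chr3:137340828-137341127 (plus strand) for Emcn and chr4:94739039-94739338 (plus strand) for Tek.
Kdr: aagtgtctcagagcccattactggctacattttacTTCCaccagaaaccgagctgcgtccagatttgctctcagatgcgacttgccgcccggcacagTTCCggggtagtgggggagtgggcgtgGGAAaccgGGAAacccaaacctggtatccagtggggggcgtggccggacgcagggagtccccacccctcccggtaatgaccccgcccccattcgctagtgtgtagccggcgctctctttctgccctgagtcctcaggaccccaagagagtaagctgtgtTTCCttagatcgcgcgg
Flt1: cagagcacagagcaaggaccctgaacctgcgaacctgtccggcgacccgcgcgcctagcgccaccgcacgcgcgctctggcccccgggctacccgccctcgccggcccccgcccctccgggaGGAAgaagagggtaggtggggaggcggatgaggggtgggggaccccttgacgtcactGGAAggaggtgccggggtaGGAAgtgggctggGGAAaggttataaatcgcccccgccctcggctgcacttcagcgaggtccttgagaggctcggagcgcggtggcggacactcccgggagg
Emcn: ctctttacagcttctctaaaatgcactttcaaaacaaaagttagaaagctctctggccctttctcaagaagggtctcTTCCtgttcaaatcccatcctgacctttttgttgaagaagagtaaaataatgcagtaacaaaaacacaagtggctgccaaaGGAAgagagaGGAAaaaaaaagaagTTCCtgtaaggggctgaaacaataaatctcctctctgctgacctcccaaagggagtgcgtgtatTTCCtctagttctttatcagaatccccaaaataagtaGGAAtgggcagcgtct
Tek: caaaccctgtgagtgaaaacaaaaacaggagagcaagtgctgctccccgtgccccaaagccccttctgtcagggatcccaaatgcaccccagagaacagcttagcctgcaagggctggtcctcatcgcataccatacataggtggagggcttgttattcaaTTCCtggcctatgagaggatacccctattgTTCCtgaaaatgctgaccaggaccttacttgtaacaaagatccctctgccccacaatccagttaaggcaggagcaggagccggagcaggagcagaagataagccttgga

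Emcn had 6 matches to GGAA on either strand, Kdr 5, Flt1 4 and Tek 2. Vegfa, the fifth gene with a promoter, had a pair of windows in the table, with 6 and 3 matches. Of all 32851 promoter windows of 27025 genes, 96.0% held at least 1 match, with a median of 3. At least as many matches as in Emcn were present in 15.7% of all windows, as in Kdr in 28.6%, as in Flt1 in 46.3% and as in Tek in 84.6%. The letters are therefore common in windows of this length. The hypoxia core ACGTG, searched on both strands, was in none of these 4 windows and in 19.6% of all windows. In Vegfa it had 1 match in the window with 3 GGAA matches, at chr17:46025114-46025413, and 0 in the other.

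The receptors for VEGF-A were low in sham cartilage and higher in injured cartilage at both ages. Kdr (chr5:75932827-75979072) was at 1.00 and 4.46 FPKM in sham and injured cartilage of young mice and 0.544 and 2.51 FPKM in that of adult mice. Flt1 (chr5:147561604-147726438) was at 0.352, 1.28, 0.133 and 0.849 FPKM, listed in this order here and below. Both injured libraries were above both sham libraries for each receptor. The plain FPKM ratio of injured to sham was 4.45 in young and 4.62 in adult mice for Kdr, and 3.62 and 6.37 for Flt1. The angiopoietin receptor Tek (chr4:94739086-94874976) had the same order of libraries, with 0.550, 1.72, 0.301 and 0.977 FPKM, and its ratios were 3.13 and 3.24.

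The genes of endothelial junctions and surface were more abundant than the receptors. Pecam1 (CD31, chr11:106654213-106715281), an adhesion molecule of endothelial junctions that platelets and leukocytes also carry, was at 3.52 and 17.8 FPKM in sham and injured cartilage of young mice and 4.98 and 11.4 FPKM in that of adult mice. Cdh5 (chr8:104101613-104144504), the cadherin of endothelial junctions, was at 1.96, 9.99, 1.37 and 6.80 FPKM. Again the injured libraries were both above the sham libraries. Plvap (chr8:71497753-71511806), which forms the diaphragms of fenestrated capillaries, was at 5.78, 24.99, 7.61 and 30.0 FPKM. Emcn (endomucin, chr3:137341062-137431069), a sialomucin of capillaries and veins, was at 2.11, 15.6, 2.03 and 9.85 FPKM. Of the 7 endothelial genes, Plvap was the only one with its highest value in adult injured cartilage, and the other 6 were highest in young injured cartilage.

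**Figure D1:**
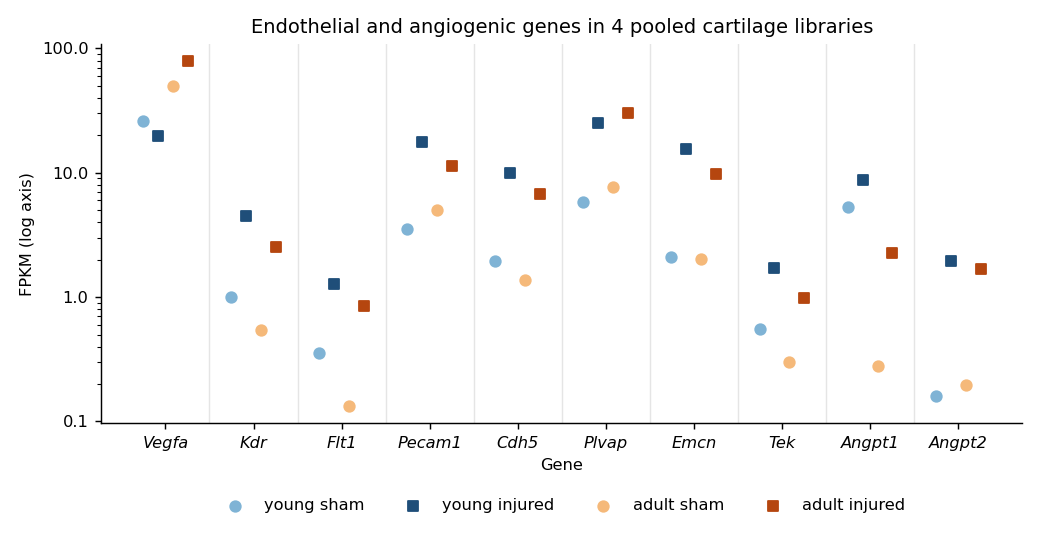
FPKM (log axis) of the 10 genes in the 4 pooled libraries, 1 point per library: circles are sham and squares injured cartilage, in blue for young and orange for adult mice. For all genes but Vegfa both squares lie above the circle of the same age, and for Vegfa, at 26.0 and 19.8 FPKM in young mice, the young square lies below.

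To compare libraries over all genes, ratios were also calculated as log2 of FPKM + 1, which understates the change of genes near 0, and 2-fold or more on that scale was taken as a change. On it, the log2 ratio of injured to sham in young mice was 2.42 for Emcn, 2.05 for Pecam1, 1.94 for Plvap, 1.89 for Cdh5 and 1.45 for Kdr, which passed 2-fold, and 0.81 for Tek and 0.75 for Flt1, which did not. In adult mice it was 1.85 for Plvap, 1.84 for Emcn, 1.72 for Cdh5, 1.19 for Kdr and 1.06 for Pecam1, and again below 2-fold for Flt1 (0.71) and Tek (0.60). Thus the same 5 of 7 endothelial genes were at least 2-fold higher at both ages, and 0 were lower. In adult mice Pecam1 no longer passed 2-fold under median-of-ratios scaling (0.82, and 0.92 without pseudocount), quantile normalization (0.72) or a pseudocount of 5 FPKM (0.72), nor did Kdr under quantile normalization (0.90) or that pseudocount (0.44), or Cdh5 under that pseudocount (0.89). In young mice Kdr alone of the 5 was lost, with a pseudocount of 5 FPKM (0.66). Of the 18181 genes above 0 in at least 1 library, 4.57% were at least 2-fold higher and 1.27% lower after injury in young mice, and 6.9% were higher and 1.46% lower in adult mice. The median log2 ratio of the 7 genes was 1.89 in young mice and 1.19 in adult mice, whereas that of all genes was 0 and 0.14.

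The plain FPKM ratios of these 7 genes, calculated with no pseudocount, ranged in young mice from 3.13 for Tek to 7.43 for Emcn with a median of 4.45. In adult mice they ranged from 2.30 for Pecam1 to 6.37 for Flt1 with a median of 4.62. The 2 genes below 2-fold on the log2 scale of FPKM + 1 were thus more than 3-fold higher as plain ratios. On the log2 scale of FPKM + 1 all 7 genes had an injury ratio that was larger in young mice (median gap 0.21), as they did with a pseudocount of 5 FPKM, median-of-ratios scaling or quantile normalization. With a pseudocount of 0.1 FPKM, or median-of-ratios scaling without pseudocount, 6 of 7 did, and as plain ratios or after rescaling to TPM 4 of 7 did. Pecam1 had the largest gap between the ages, with a plain ratio of 5.05 in young mice against 2.30 in adult mice, and its FPKM in sham cartilage was higher in adult than in young mice.

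**Figure D2:**
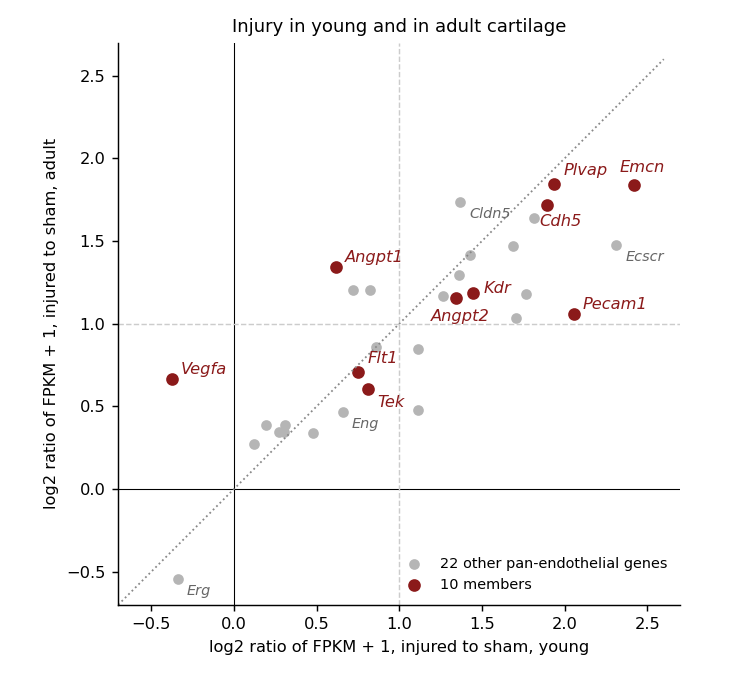
Log2 ratio of FPKM + 1, injured to sham, in young (x axis) and adult mice (y axis) for the 10 genes (red) and 22 other pan-endothelial genes (grey), 1 point per gene; dashed lines mark 2-fold and the dotted line equal ratios. Emcn, Plvap, Cdh5, Pecam1, Kdr and Angpt2 passed 2-fold at both ages as deposited, and Vegfa lies left of 0 at -0.38 in young and above 0 at 0.66 in adult mice.

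The same was examined in 22 other genes expressed across the endothelium, among them Tie1, Egfl7, Cldn5, Robo4, Sox17, Eng and Cd34. After injury 11 of 22 were at least 2-fold higher and 0 lower in young mice, and the counts in adult mice were also 11 and 0. The number higher depended on the setting, since over the other pseudocounts, filter and scalings it ranged from 3 (pseudocount of 5 FPKM) to 14 (0.1 FPKM) in young mice and from 0 to 17 with the same pseudocounts in adult mice, and at 3-fold it was 5 and 2. Their log2 ratios had a median of 0.98 in young mice and 0.95 in adult mice. At each age 21 of 22 had a ratio above 0. Ecscr, an endothelial surface protein, had the highest ratio in young mice and was at 0.936 and 8.62 FPKM in sham and injured cartilage of young mice and 1.84 and 6.92 FPKM in that of adult mice. The tight junction gene Cldn5 had the highest ratio in adult mice and was at 0.996, 4.15, 0.664 and 4.54 FPKM. The coreceptor gene Eng, the most abundant of the list, was at 14.6, 23.7, 20.5 and 28.7 FPKM and stayed below 2-fold. The exception was Erg, an ETS factor that articular chondrocytes also express, which was lower in injured cartilage at both ages, at 13.5, 10.5, 25.7 and 17.3 FPKM.

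Of the 3 ligands, Vegfa (chr17:46016993-46032377) differed from the endothelial genes in its pattern. It was at 26.0 and 19.8 FPKM in sham and injured cartilage of young mice and 49.5 and 79.0 FPKM in that of adult mice. The order of libraries followed age, with both adult libraries above both young libraries. After injury its level was 1.31-fold lower in young and 1.60-fold higher in adult mice, neither of which passed 2-fold. The opposite directions were kept after rescaling to TPM and under median-of-ratios scaling and quantile normalization. Another pseudocount or a filter cannot turn a direction. Vegfa was the most abundant of the 10 genes in 3 libraries and came second to Plvap in young injured cartilage.

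Angpt1 (chr15:42424667-42676977), which in many tissues comes from mural and mesenchymal cells, was at 5.32 and 8.70 FPKM in sham and injured cartilage of young mice and 0.281 and 2.25 FPKM in that of adult mice. Both young libraries were above both adult libraries. The injured to sham ratio was 1.63 in young mice and 8.004 in adult mice, and the log2 ratio of FPKM + 1 was 0.62 and 1.34. The adult ratio rests on a sham value of 0.281 FPKM, among the lowest measured here, as does the comparison of sham cartilage between the ages. Part of its exon sequence overlaps the gene Gm17473 on the other strand; the libraries were stranded, but the strand setting of the counting is not given in the sources used here. Angpt2 (chr8:18690263-18741562) was at 0.161, 1.95, 0.197 and 1.67 FPKM, so that it was below 0.2 FPKM in both sham libraries and above 1.6 in both injured libraries. Its plain ratios, 12.1 in young and 8.48 in adult mice, were the largest of the 10 genes at either age, and its log2 ratios of FPKM + 1 were 1.34 and 1.16. If the smallest step of the FPKM values is 1 fragment, about 15.1 fragments of Angpt2 were behind the young sham and 21.7 behind the adult sham value, so that these ratios rest on few fragments.

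Counted together, 6 of the 10 genes were at least 2-fold higher after injury in young mice (Emcn, Pecam1, Plvap, Cdh5, Kdr and Angpt2) and 7 in adult mice (the same 6 and Angpt1), with 0 lower at either age, against the 4.57% and 6.9% of all genes given above. Those shares include genes below 1 FPKM in both libraries, which cannot pass 2-fold on this scale. The 10 genes were also chosen with earlier results of these data known. Angpt2 no longer passed 2-fold with a pseudocount of 5 FPKM (0.43 in young and 0.36 in adult mice) or, in adult mice, under quantile normalization (0.96), nor did Angpt1 in adult mice with that pseudocount (0.46). The number of genes at 1 FPKM or more was 7 and 10 in sham and injured cartilage of young mice and 5 and 8 in that of adult mice. The scaling of the libraries matters to the adult comparison: among 10891 genes that reached 1 FPKM in every library, adult injury had a median log2 ratio of 0.23, and median-of-ratios scaling brought it to -0.00 and all genes from 1255 higher and 266 lower to 866 and 455, quantile normalization to 725 and 489. The 7 endothelial genes, with a median of 1.19, and Vegfa, at 0.66, lay above that median of 0.23.

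Age was examined by comparing adult with young cartilage, first in sham joints. Of the 7 endothelial genes, Pecam1 and Plvap were higher in adult sham cartilage, with plain ratios of 1.42 and 1.32, and the other 5 were lower, at 0.966 for Emcn, 0.697 for Cdh5, 0.548 for Tek, 0.543 for Kdr and 0.378 for Flt1. Flt1 was thus 2.65-fold lower as a plain ratio, at levels below 0.4 FPKM. On the log2 scale of FPKM + 1 the 7 genes had a median of -0.25, against -0.15 for all genes, and none passed 2-fold. The direction turned for Emcn (from -0.03 up to 0.34) and Cdh5 (from -0.32 up to 0.03) under other scalings. Both were above 0 under quantile normalization, where the median of the 7 genes was above 0 too. Angpt1 was the only one of the 10 genes past 2-fold, 18.9-fold lower in adult cartilage as a plain ratio and at -2.30 on the log2 scale. Vegfa was 1.90-fold higher in adult sham cartilage, a log2 ratio of 0.90, which passed 2-fold under median-of-ratios scaling and quantile normalization. Of all genes, 2.66% were at least 2-fold higher and 10.6% lower in adult sham cartilage; this split of 484 higher and 1934 lower became 972 and 1009 under median-of-ratios scaling and 916 and 959 under quantile normalization.

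In injured joints, 6 of the 7 endothelial genes were lower in adult than in young mice, with plain ratios down to 0.564 for Kdr, and Plvap was higher at 1.20. None passed 2-fold on the log2 scale, where the median was -0.49. The directions were kept after rescaling to TPM and under median-of-ratios scaling and quantile normalization, the settings that could turn them. Vegfa was 3.99-fold higher in adult injured cartilage, with a log2 ratio of 1.94, and Angpt1 was 3.87-fold lower, with a log2 ratio of -1.58. They were the only ones of the 10 genes past 2-fold. Of all genes, 1.8% were at least 2-fold higher and 3.09% lower, and the split of 328 higher and 561 lower became 625 and 619 after rescaling to TPM. The comparisons by age and by injury share libraries and are not independent of each other.

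Since FPKM are per transcript length, levels were also compared between genes within a library, where the scaling between libraries does not enter. The FPKM of Vegfa was 17.5 times the geometric mean of the 7 endothelial genes in sham and 2.91 times in injured cartilage of young mice, and 43.9 and 16.9 times in that of adult mice. Thus the excess of ligand over endothelial transcripts was smaller after injury at both ages and larger in adult than in young mice in either state. The FPKM ratio of Angpt2 to Angpt1 was 0.0302 and 0.224 in sham and injured cartilage of young mice and 0.700 and 0.742 in that of adult mice. Angpt1 was thus above Angpt2 in all 4 libraries, by far the most in young sham cartilage, and in adult mice the ratio was nearly equal in both states. The ratio of the receptors, Kdr to Flt1, was 2.85, 3.49, 4.08 and 2.96, an order that changed with 1 FPKM added to both genes.

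Among the endothelial genes, levels relative to Cdh5 showed where the genes did not move in parallel. Pecam1 was at 1.79 times the FPKM of Cdh5 and 1.78 in sham and injured cartilage of young mice and 3.64 and 1.68 in that of adult mice. Plvap was at 2.95, 2.50, 5.57 and 4.41 times Cdh5. Adult sham cartilage thus held more Pecam1 relative to Cdh5 than any other library, also with 1 FPKM added to both genes (2.53 against at most 1.71). For Plvap the order of the adult libraries turned with 1 FPKM added, to 3.64 in sham and 3.97 in injured cartilage. Of the other genes, Emcn was at 1.07 to 1.57 times Cdh5, Kdr at 0.369 to 0.511, Tek at 0.144 to 0.280 and Flt1 at 0.0975 to 0.180.

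**Figure D3:**
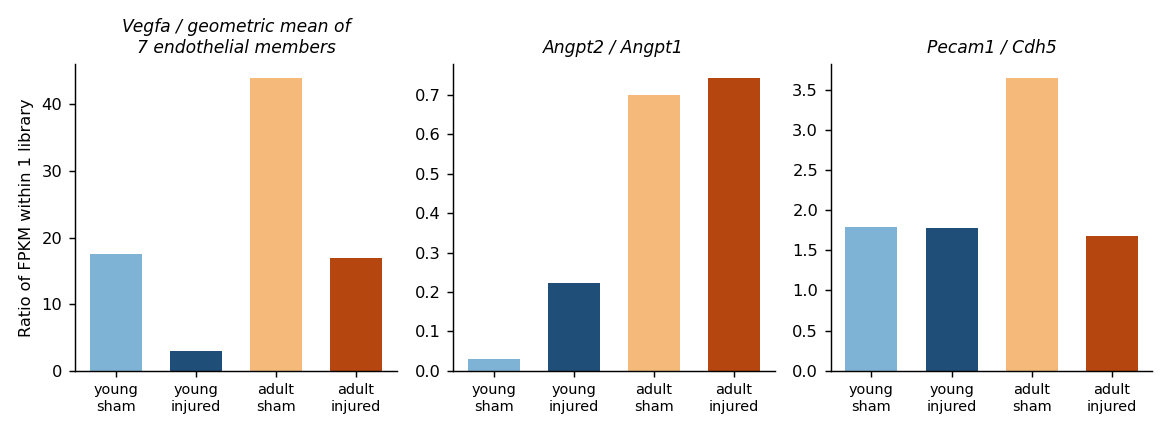
Ratios of FPKM within each of the 4 libraries, 1 bar per library, starting at 0: Vegfa to the geometric mean of the 7 endothelial genes (left), Angpt2 to Angpt1 (middle) and Pecam1 to Cdh5 (right). Adult sham cartilage has the highest bar on the left (43.9) and on the right (3.64), and young sham cartilage the lowest in the middle (0.0302).

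Of 7 other ligands and receptors of the VEGF family, 2 were at least 2-fold higher after injury at each age and 0 lower, and their log2 ratios had a median of 0.27 in young mice and 0.71 in adult mice. With a pseudocount of 5 FPKM 0 and 1 were higher, and with 0.1 FPKM 3 and 5. The 2 genes were the neuropilins, coreceptors of VEGF that many cell types carry. Nrp2 was at 2.98 and 10.5 FPKM in sham and injured cartilage of young mice and 3.83 and 15.4 FPKM in that of adult mice, and Nrp1, named after its values were seen, at 4.36, 12.8, 2.50 and 7.85. The lymphatic receptor Flt4, also named after its values were seen, was low at 0.398, 1.23, 0.0942 and 0.788 FPKM, with plain ratios of 3.09 and 8.36 that did not pass 2-fold with 1 FPKM added. The ligand Vegfb was lower after injury at both ages, at 7.06, 5.25, 10.2 and 7.16 FPKM.

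Of 10 genes of tip cells and sprouting, 3 passed 2-fold upward after injury in young mice and 4 in adult mice, with 0 lower and medians of 0.67 and 0.93. With a pseudocount of 5 FPKM 1 passed at each age, and with 0.1 FPKM 6 and 7 did. Aplnr, the apelin receptor of growing veins and sprouts, was at 1.64 and 10.1 FPKM in sham and injured cartilage of young mice and 0.581 and 7.08 FPKM in that of adult mice, and was far higher in both injured libraries. The basement membrane gene Nid2 was the most abundant and followed age, at 53.1, 37.6, 5.05 and 10.8 FPKM. Notch1, which restrains sprouting, stayed below 2-fold at both ages, at 2.73, 2.99, 1.13 and 1.94 FPKM. Of 6 genes of activated endothelium, 2 passed it in young mice and 3 in adult mice, with medians of 0.82 and 0.93. With a pseudocount of 5 FPKM 0 passed at either age, and with 0.1 FPKM 6 and 5 did. The 3 genes that passed in adult mice were Vcam1, Selp and Nos3, and the 2 in young mice Vcam1 and Icam1. The leukocyte adhesion gene Vcam1 was at 1.78, 5.41, 2.34 and 7.01 FPKM. Selp, a selectin of endothelium and platelets, was at 0.0999, 0.543, 0.0662 and 1.60 FPKM and Nos3, the endothelial nitric oxide synthase, at 0.196, 1.31, 0.273 and 1.56, both low in sham cartilage and both named after their values were seen. Icam1, which immune cells and fibroblasts also express, was at 10.2, 23.6, 23.2 and 30.9 FPKM. The chemokine receptor of venules, Ackr1, was at 1.04, 2.28, 1.04 and 2.66 FPKM, and Sele, an endothelial selectin, was listed at 0 in adult sham cartilage and below 0.3 FPKM in the others.

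Of 5 lymphatic endothelial genes, only Pdpn was at least 2-fold higher, at both ages, 0 were lower, and the medians were 0.11 and 0.01. With a pseudocount of 0.1 FPKM 2 were higher at each age. In young mice 1 was lower with that pseudocount, after rescaling to TPM or under quantile normalization, and in adult mice 1 under quantile normalization. Pdpn, which osteocytes and fibroblasts also express, was at 14.2 and 41.1 FPKM in sham and injured cartilage of young mice and 6.72 and 32.5 FPKM in that of adult mice. Prox1, the defining factor of lymphatic endothelium, was listed at 0 in young injured and in adult sham cartilage. It was at 0.0139 FPKM in young sham and 0.00943 FPKM in adult injured cartilage. Lyve1 was lower in both injured libraries, at 2.99, 1.02, 2.72 and 1.32 FPKM, and which cells carried it was not tested.

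Of 12 genes listed for mural cells, which are pericytes and vascular smooth muscle, 3 were at least 2-fold higher and 1 lower after injury in young mice, 2 were higher and 0 lower in adult mice, and the medians were 0.42 and 0.44. In young mice 1 was higher with a pseudocount of 5 FPKM or at 3-fold, and 3 were lower at 1.5-fold. The 2 genes higher at both ages were Mcam, which endothelial cells also carry, and Pdgfb, the ligand by which endothelial cells and platelets attract pericytes and no marker of mural cells. Kcnj8, a pericyte channel, was the third in young mice. Pdgfb and Kcnj8 were named after their values were seen. Pdgfb was at 0.958, 4.81, 1.67 and 7.11 FPKM. Mcam was at 3.54 and 15.6 FPKM in sham and injured cartilage of young mice and 2.28 and 10.2 FPKM in that of adult mice. The contractile genes of the list did not share 1 direction. Acta2 was at 95.7, 44.6, 7.73 and 15.2 FPKM, at least 2-fold lower after injury in young mice and 1.96-fold higher in adult mice. Tagln was at 14.4, 8.16, 14.9 and 7.88 FPKM, lower in both injured libraries, whereas Myh11, below 0.6 FPKM in all libraries, was 1.38-fold and 2.53-fold higher. Cspg4, the most abundant of the list and also expressed by chondrocytes, was at 60.1, 33.2, 49.6 and 48.4 FPKM.

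The genes that sense oxygen and regulate Vegfa were examined as 7 hypoxia pathway genes. None was at least 2-fold changed after injury at either age (1 was higher in adult mice after rescaling to TPM), with a median of -0.27 in young mice and 0.45 in adult mice. Hif1a was the most abundant, at 75.5 and 80.9 FPKM in sham and injured cartilage of young mice and 53.2 and 77.5 FPKM in that of adult mice. Epas1, which encodes HIF-2alpha, was lower after injury at both ages, at 11.5, 7.46, 29.9 and 16.5 FPKM. Egln3, an oxygen sensor that is itself a target of HIF, was at 3.35, 2.86, 4.01 and 8.02 FPKM, so that, as for Vegfa, its lowest value was in young injured and its highest in adult injured cartilage.

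Of 9 angiogenesis inhibitors of cartilage and matrix, 3 were at least 2-fold higher and 1 lower in young mice, and 2 were higher and 1 lower in adult mice, with medians of 0.27 and 0.60. The inhibitor Thbs1 (thrombospondin 1) had the largest fall of the list at both ages, from 412 FPKM in sham to 120 in injured cartilage of young mice and from 470 to 55.8 in adult mice. In contrast Col18a1, a collagen of vascular basement membranes from which endostatin is cut, was at 1.56, 10.99, 3.18 and 9.88 FPKM, higher in both injured libraries. Sparc, a matrix protein abundant in bone, was at 8634, 6815, 22039 and 11027 FPKM.

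**Figure D4:**
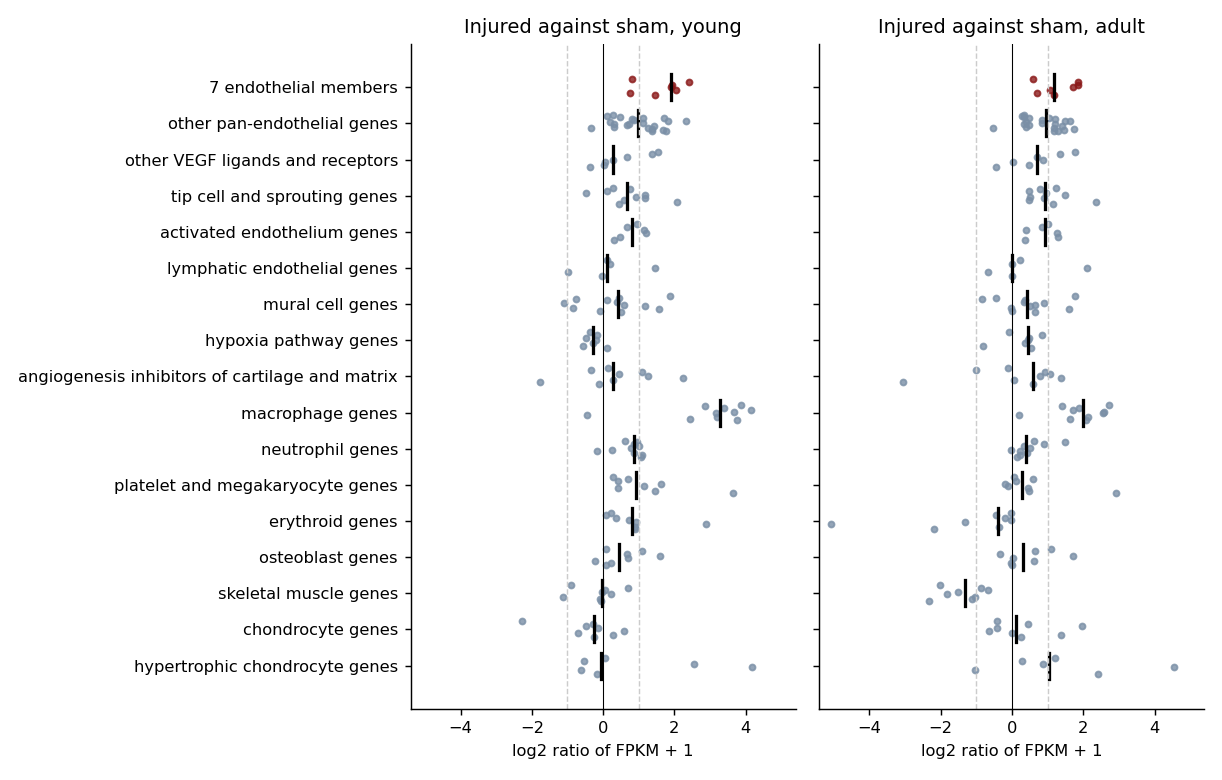
Log2 ratio of FPKM + 1, injured to sham, for the 7 endothelial genes (red) and 16 other gene lists (grey-blue) in young (left) and adult mice (right): 1 point per gene, black bars are list medians and dashed lines mark 2-fold. The 7 endothelial genes have medians of 1.89 and 1.19, and the macrophage genes have the highest at 3.29 and 1.98.

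The levels of markers of other cells were compared in the same way. Of 10 macrophage genes, 9 were at least 2-fold higher at each age, none was at 0 in any library, and they summed to 200.9 and 1892 FPKM in sham and injured cartilage of young mice and 314.9 and 1613 FPKM in that of adult mice. Of 8 platelet and megakaryocyte genes, 4 were higher in young mice and 1 in adult mice, none was at 0, and their medians were 0.93 and 0.29. The platelet genes summed to 20.2, 133.5, 25.3 and 79.8 FPKM, of which Pf4 alone was 6.37, 91.4, 6.92 and 58.8. In adult mice Pf4 was the 1 gene past 2-fold, and 2 of the 8 had a log2 ratio below 0, so that the higher sum there rests mainly on Pf4. Of 8 osteoblast genes, 2 were higher at each age (1 in young mice after rescaling to TPM or with a pseudocount of 5 FPKM), with medians of 0.45 and 0.32 and sums of 824.4, 1537, 5786 and 6284 FPKM. The part of the makeup of the tissue in the results for the endothelial genes was not tested.

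Of 10 neutrophil genes, 3 were higher in young mice and 1 in adult mice, with medians of 0.87 and 0.38. The count in young mice was 0 under quantile normalization, 1 after rescaling to TPM and 5 with a pseudocount of 0.1 FPKM. Of 8 erythroid genes, 1 was higher in young mice and 3 were lower in adult mice, with medians of 0.81 and -0.40. Of 8 skeletal muscle genes, 1 was lower in young and 6 in adult mice, with medians of -0.04 and -1.32. Of 8 chondrocyte genes, 1 was lower in young and 2 were higher in adult mice, with medians of -0.26 and 0.13, and they summed to between 12090 and 15364 FPKM.

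To find genes with a like pattern, the centred log2 values of FPKM + 1 over the 4 libraries were compared between genes for 8055 genes that averaged 5 FPKM or more. The genes nearest to Vegfa were Cited1 (Euclidean distance 0.20 on the log2 scale), Ogfrl1 (0.37), Chst12 (0.39), Hes1 (0.39) and C1ra (0.40). The transcriptional coregulator Cited1 was at 3.26 and 2.25 FPKM in sham and injured cartilage of young mice and 7.52 and 13.8 FPKM in that of adult mice, the same order of libraries as for Vegfa. The genes nearest to the mean of the 7 endothelial genes were Coro1a (0.077), Mndal (0.14), Gmfg (0.14), Igtp (0.19) and Rac2 (0.19). Coro1a, an actin regulator of leukocytes, was at 26.9, 83.9, 23.8 and 61.8 FPKM. With only 4 libraries, many genes lie close to any profile.

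The precision of single values is limited by the pools and by depth. FPKM summed to between 469939 and 533468 per library. A step was fitted to the lowest values within a set range. It would correspond to between 25700000 and 31000000 fragments per library if 1 step is 1 fragment. At most 29.1% of low values came within 0.05 of a whole number of steps, so that no counting interval is given. On that condition Flt1 had about 64.0 and 232 fragments in sham and injured cartilage of young mice and 28.4 and 150 in that of adult mice, and Cdh5 about 206, 1053, 169 and 699. Up to 2.11% of the 31-base transcript words of any of the 10 genes, the most for Pecam1, also occur in another gene.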

How the data were processed

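RNA sequencing was performed on 4 pooled cartilage libraries, prepared by a stranded kit for polyadenylated RNA and sequenced as paired ends. The authors deposited FPKM for 24532 genes on mm10. The submitters' processing notes list HISAT, HISAT2 2.1.0, StringTie 1.3.4d, STAR and SAMtools, with no roles given. FPKM are scaled by transcript length and by the mapped total, so a few very abundant genes can lower all other values of a library. Each column was matched to its library by name.

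Log2 ratios were calculated between libraries with a pseudocount of 1 FPKM for 18181 genes above 0 in at least 1 library, and changed means 2-fold or more. With 1 library per group no test was made. The members and the 16 other gene lists were chosen with earlier results of these data known; 1 list gene, Cnmd, was not found under that symbol. Besides the 10 members, the rule named from each list the gene with the highest mean FPKM and those with the largest rise and fall after injury among genes averaging at least 1 FPKM, and the 5 nearest profiles each for Vegfa and the endothelial genes; for lists of other cell types counts are given. Nrp1, Flt4, Col10a1, Prox1, Sele, Selp, Nos3, Myh11, Pdgfb and Kcnj8 were named after their values were seen. Alternatives were pseudocounts of 0.1 and 5 FPKM, a filter of 1 FPKM, TPM, median-of-ratios scaling, quantile normalization, thresholds of 1.5-fold and 3-fold and, chosen after seeing the data, no pseudocount with and without median-of-ratios scaling. Coordinates and promoters are from RefSeq (GRCm38.p6). Python 3.11.15, numpy 2.4.6, pandas 2.3.3 and matplotlib 3.10.9 were used.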

Additional observations from a re-analysis of the deposited data

Results flagged for a closer look

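Vegfa had opposite directions after injury at the 2 ages, with a log2 ratio of FPKM + 1 of -0.38 in young mice and 0.66 in adult mice. With 1 library per group the difference between the ages was not tested, and neither ratio passed 2-fold. Over 8 alternative calculations the ratio in young mice ranged from -0.50 (TPM) to -0.32 (pseudocount of 5 FPKM). That in adult mice ranged from 0.39 (median-of-ratios scaling) to 0.77 (TPM). The directions were thus kept, but only TPM, median-of-ratios scaling and quantile normalization could turn them.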

How the results depend on the processing

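With 1 library per group no replicate could be left out. No paired analysis was possible because each group has a single library. Of 320 alternative values for the 10 genes, 284 kept direction and side of 2-fold, 18 passed it newly, 14 no longer passed it, and 4, all ratios below 2-fold, changed sign (Cdh5 and Emcn, adult against young sham). Part of this was fixed by construction. The filter of 1 FPKM left every ratio of the 10 genes as it was, and another pseudocount alone cannot turn a direction. The median log2 ratio of the 7 endothelial genes in adult injury fell below 2-fold with a pseudocount of 5 FPKM (0.72) and with quantile normalization (0.90). The median of the 22 other endothelial genes passed 2-fold with a pseudocount of 0.1 FPKM (1.62 in young, 1.49 in adult mice), a filter of 1 FPKM (1.27 and 1.18) and TPM (1.16 and 1.22). Of the 10 genes, those at least 2-fold higher in adult injury numbered 2 with a pseudocount of 5 FPKM, 4 with quantile normalization and 3 at a threshold of 3-fold. Those higher in young injury, 6 as deposited, numbered 4 with a pseudocount of 5 FPKM or at 3-fold. They numbered 8 with 0.1 FPKM or no pseudocount, and 9 at 1.5-fold. In adult against young sham cartilage 1 was higher with median-of-ratios scaling, with or without pseudocount, quantile normalization or a threshold of 1.5-fold. There 0 were lower with a pseudocount of 5 FPKM, and 2 with no pseudocount, with or without median-of-ratios scaling. In adult against young injured cartilage 0 were lower with a pseudocount of 5 FPKM or a threshold of 3-fold, and 4 at 1.5-fold. With 1 FPKM added to both genes, the ratio of Angpt2 to Angpt1 became 0.184 and 0.304 in sham and injured cartilage of young mice and 0.934 and 0.821 in that of adult mice, so that the order of the adult libraries turned. Kdr to Flt1 became 1.48, 2.40, 1.36 and 1.90, so that adult sham cartilage went from the highest to the lowest of the 4, and Vegfa to the endothelial genes 9.84, 2.47, 19.3 and 12.6. Apart from the construction of each setting, the cause of these shifts was not tested. Depth limits the genes below 1 FPKM, above all Flt1, Tek and Angpt2 in sham cartilage of both ages and Angpt1 in that of adult mice.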

Other observations

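Genes of hypertrophic chondrocytes, the cells of growing bone next to which vessels invade cartilage, were also measured. Of 6 such genes, 2 were at least 2-fold higher and 0 lower after injury in young mice, and 3 were higher and 1 lower in adult mice, with medians of -0.05 and 1.03. Col10a1, the collagen that defines these cells, was at 337.9 and 302.2 FPKM in sham and injured cartilage of young mice and 458.7 and 2446 FPKM in that of adult mice, so that it was lowest and highest in the same libraries as Vegfa. Mmp13, a collagenase, was at 25.3, 473.7, 21.2 and 518.2 FPKM and was higher after injury at both ages. Spp1 (osteopontin), which osteoblasts and macrophages also express, was at 396.7, 2338, 2722 and 4953 FPKM, higher in the injured library of each age. Ihh, a signal of prehypertrophic cells, was lower after injury at both ages, at 2.59, 1.34, 16.6 and 7.55 FPKM.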
